A study of Mus musculus with 8 samples.

Results

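The genes described here are 10 genes of endothelial junctions, the endothelial surface and the angiopoietin-Tie pathway, measured in single endocardium cells of the mouse heart at E8.5 (9 somites). They were chosen by name, as every non-control probe whose gene name in the files is *Cdh5*, *Pecam1*, *Cldn5*, *Esam*, *Emcn*, *Cd34*, *Icam2*, *Tek*, *Tie1* or *Angpt2*, and they are 10 of 35560 genes and 11 of 55295 probes analysed. The data were 8 1-colour Agilent arrays, each hybridized with RNA made from the amplified cDNA of 1 cell. Of the cells, 4 were WT (*Mesp1*+/+/*Sox17* flox/flox) and 4 were *Sox17* KO (*Mesp1* Cre/+/*Sox17* flox/flox). All embryos thus carried 2 floxed *Sox17* alleles, and KO embryos also carried Cre at the *Mesp1* locus, which is active in nascent mesoderm, so that *Sox17* is deleted in the mesoderm and not in the endocardium alone. Cells were dissociated from the heart with trypsin, picked singly and assigned to a cell type by PCR of marker genes. The names of those marker genes are not given in the sources used here, so that detection of an endothelial gene is independent of the choice of the cells only if that gene was not among them.

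The endothelium is a sheet of cells held together by adherens and tight junctions, and the endocardium is its part that lines the heart. VE-cadherin (*Cdh5*) and claudin 5 (*Cldn5*) are the endothelial proteins of these 2 kinds of junction, while PECAM1 and ESAM are immunoglobulin-type adhesion molecules at cell contacts. CD34 and endomucin (*Emcn*) are sialomucins of the luminal surface, and ICAM2 is a surface ligand of leukocyte integrins. TIE2 (*Tek*) is the receptor for angiopoietins, TIE1 is its relative that modulates TIE2 signaling, and angiopoietin 2 (*Angpt2*) is a ligand that often opposes angiopoietin 1.

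Each value below is the log2 of the intensity after scaling between arrays, and intensities under 50 were set to 50, so that the lowest possible value, here called the floor, is 5.64. A probe is called detected in a cell when the scanner software marked it as well above background. Since the labels do not tie cells to embryos, a genotype counted as 1 sample and no test was made, and differences (KO minus WT, of mean log2 values) are set beside the SD between cells. The arrays detected between 11370 and 18175 probes. WT cell 1 had the lowest number, was marked for evaluation by the scanner software, and had a median CV of replicate spots of 13.7%, against 6.18% to 8.90% on the other arrays, so that the differences of the detected members are also given without it. All arrays shared 1 slide and 1 scan, WT cells in one row and KO cells in the other, and an effect of the row cannot be told apart from that of genotype. The 2 probes of *Sox17* were detected in none of the 8 cells, with scaled intensities between 1.1 and 6.2, and the labels could not be checked by this gene.

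The genes were read by 60-base probes whose transcript and position on mm9 the files give, without the exon or untranslated region. Probe sequences of *Tek*, *Tie1*, *Pecam1*, *Emcn* and *Cd34* are shown only where they read through without a stop codon in at least 1 frame. The open frame was thus the rule of choice and is not a result. The brighter probe of *Cd34* did not pass this rule and is not shown. For *Tek* (chr4:94540624-94540683, plus strand) and *Tie1* (chr4:118144132-118144191, minus strand), capitals mark the bases shared by both probes when the *Tie1* probe is shifted by 3 bases, 39 of 57 aligned bases or 68.4%. The probe of *Pecam1* lies at chr11:106540864-106540923 (minus strand), that of *Emcn* at chr3:137086389-137086448 (plus strand) and the second probe of *Cd34* at chr1:196785280-196785339 (plus strand).
Tek: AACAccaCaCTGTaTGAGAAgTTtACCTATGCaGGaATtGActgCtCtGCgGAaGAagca
Tie1: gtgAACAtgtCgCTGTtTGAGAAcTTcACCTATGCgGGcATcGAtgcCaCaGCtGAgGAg
Pecam1: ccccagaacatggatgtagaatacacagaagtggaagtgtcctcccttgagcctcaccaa
Emcn: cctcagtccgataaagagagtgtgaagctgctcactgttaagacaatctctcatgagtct
Cd34, second probe: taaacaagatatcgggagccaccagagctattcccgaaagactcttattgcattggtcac

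Of the 10 genes, 9 were detected in at least 1 cell and 5 (*Cdh5*, *Pecam1*, *Esam*, *Cd34* and *Icam2*) in all 8 cells, where 30.9% of the 20265 genes detected in at least 1 cell were detected in all 8. *Tie1* was detected in 7 cells, *Tek* in 6, *Emcn* in 5, *Cldn5* in 2 and *Angpt2* in none. In the order of cell numbers, 6, 8, 8 and 8 of them were detected in the WT cells and 7, 8, 8 and 7 in the KO cells. WT cell 1 was the cell with the fewest, and the other cells of both genotypes lay between 7 and 8.

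**Figure D1:**
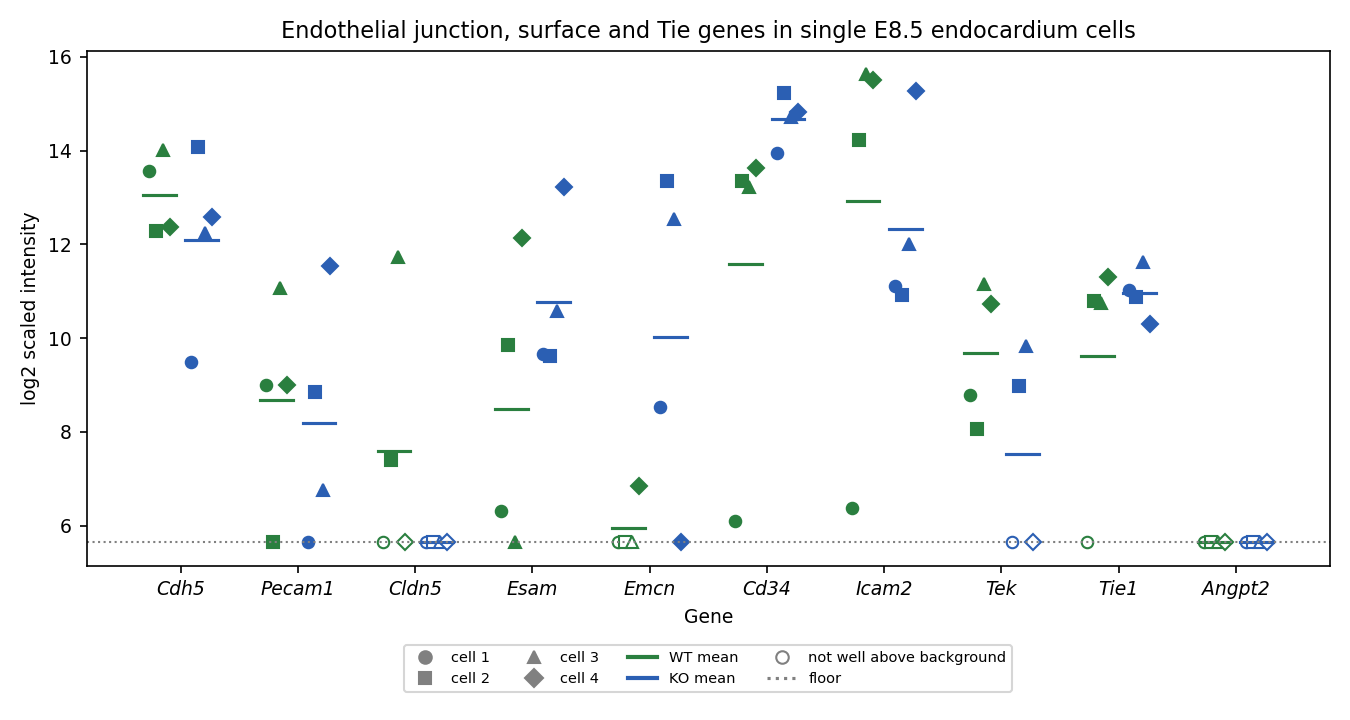
Log2 scaled intensity of the 10 genes in 4 WT (green) and 4 KO (blue) cells, 1 symbol per cell and a bar for the mean of the genotype; open symbols are probes not well above background and the dotted line is the floor at 5.64. *Cd34* is the only gene whose KO cells all lie above the WT cells, and *Cldn5* is at the floor in every KO cell.

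*Cdh5* (chr8:106668159-106668218) was detected in every cell. In the order of cell numbers, here and below, its log2 values were 13.57, 12.29, 14.01 and 12.38 in WT cells and 9.50, 14.08, 12.24 and 12.58 in KO cells. KO cell 1 lay far below the WT range and KO cell 3 just below it, while KO cell 2 was the highest cell of all. The difference was -0.96 with a pooled SD between cells of 1.48, and it was -0.79 without WT cell 1, -0.09 without KO cell 1 and -1.62 without KO cell 2.

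*Pecam1*, whose protein is widely used to stain endothelium, was detected in every cell but spread widely within each genotype. Its values were 9.00, 5.64, 11.08 and 9.01 in WT cells and 5.66, 8.86, 6.75 and 11.54 in KO cells. WT cell 2 was at the floor and KO cell 1 just over it, while the highest cells were WT cell 3 and KO cell 4, so that the genotypes overlapped over nearly their whole range. The difference of -0.48 was smaller than the SD between cells of 2.43. It was -0.38 without WT cell 1 and changed sign with some other cells left out, to 0.32 without WT cell 3 and to 0.37 without KO cell 1, whereas it was most negative without KO cell 4 (-1.59) and nearly as negative without WT cell 2. The probe was spotted 2 times on each array, and the brighter spot was 1.02 to 1.17 times the dimmer within an array, far less than the distance between cells.

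*Esam*, an adhesion molecule of endothelial tight junctions, was detected in every cell. Its probe (chr9:37345795-37345854) gave 6.32, 9.87, 5.64 and 12.15 in WT cells and 9.67, 9.62, 10.57 and 13.22 in KO cells. WT cells 1 and 3 were at or near the floor and no KO cell was, but WT cells 2 and 4 lay within the KO range. The difference of 2.28, or 4.85-fold, was of the size of the SD between cells of 2.47. It was 1.55 without WT cell 1, 1.33 without WT cell 3 and 1.46 without KO cell 4, and passed 5-fold without WT cell 2 (2.73), WT cell 4 (3.49), KO cell 1 (2.64), KO cell 2 (2.66) or KO cell 3 (2.34).

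Among the members, *Cldn5* was the junction gene detected in the fewest cells. Its probe (chr16:18778046-18778105) was well above background in WT cells 2 and 3, with 7.40 and 11.73, and at the floor in WT cells 1 and 4 and in all KO cells. No KO cell was well above background, and WT cells 1 and 4 were set to the floor as well. The mean was 3.89-fold lower in KO cells, a size that the floor sets and that is not a lower bound. The difference was -1.02 with a floor of 200 and -3.04 with a floor of 10. The fold rests on WT cell 3, without which the difference of -1.96 (SD between cells 2.03) was -0.58. Without WT cell 1 or WT cell 4 it was 6.12-fold.

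*Cd34* was the member whose cells did not overlap between genotypes. At the brighter of its 2 probes (chr1:196787392-196787451) it was detected in every cell, with 6.09, 13.35, 13.23 and 13.63 in WT cells and 13.95, 15.23, 14.72 and 14.82 in KO cells. The lowest KO cell was 13.95 and the highest WT cell 13.63, while WT cell 1 lay far below all others. The difference was 3.10 (8.58-fold) with an SD between cells of 2.61. Without WT cell 1 it was 1.27 and no longer 5-fold, and the cells still did not overlap. It was 3.69 without WT cell 2 and 3.79 without WT cell 4. The cells overlapped under 5 other ways of processing, among them the percentile over all probes and the floor set before scaling, which are nearer to the study's own steps. The second probe of *Cd34*, which starts 2112 bases upstream on mm9, was detected in KO cell 3 only (6.42). All remaining cells were at the floor for it. The mean of the 2 probes differed by 1.65.

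*Emcn*, an endothelial sialomucin also used as a marker of the endocardium, had the largest difference of the 10 genes. It was detected in 1 WT cell and in all 4 KO cells. Its values were 5.64, 5.64, 5.64 and 6.84 in WT cells and 8.52, 13.36, 12.54 and 5.64 in KO cells. KO cells 1 to 3 lay above every WT cell, but KO cell 4 was at the floor, and so the genotypes overlapped. The difference was 4.07 (16.8-fold) with an SD between cells of 2.58, and 3.97 without WT cell 1. It ran from 2.96 without KO cell 2 and 3.23 without KO cell 3 to 5.53 without KO cell 4, when the cells no longer overlapped. Because 3 WT cells were at the floor, the floor sets its size, from 2.87 with a floor of 200 to 5.58 with a floor of 10.

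*Icam2* was detected in every cell. Its probe (chr11:106238971-106239030, minus strand) gave 6.38, 14.24, 15.63 and 15.50 in WT cells and 11.11, 10.92, 12.02 and 15.26 in KO cells. WT cells 2 to 4 and KO cell 4 were high, KO cells 1 to 3 were intermediate and WT cell 1 was low. The difference over all cells was -0.61 with an SD between cells of 3.43. Without WT cell 1 it was -2.80, past 5-fold, whereas leaving out WT cell 3 turned it to 0.29 and leaving out WT cell 4 to 0.25, so that its direction depended on which WT cell was left out.

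The receptor *Tie1* was detected in all cells but WT cell 1. Its values were 5.64, 10.79, 10.75 and 11.30 in WT cells and 11.02, 10.88, 11.63 and 10.30 in KO cells. Apart from WT cell 1, the 7 cells lay between 10.30 and 11.63. The difference of 1.34 (SD between cells 1.92) was 0.01 without WT cell 1.

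*Tek* was detected in all 4 WT cells and in 2 of 4 KO cells. Its values were 8.79, 8.06, 11.15 and 10.73 in WT cells and 5.64, 8.99, 9.83 and 5.64 in KO cells. KO cells 1 and 4 were at the floor, and KO cells 2 and 3 lay inside the WT range. The difference was -2.16, or 4.46-fold lower in KO cells, with an SD between cells of 1.88. It was -2.45 without WT cell 1, -2.70 without WT cell 2, -2.64 without KO cell 2 and -2.93 without KO cell 3, each past 5-fold, and -1.53 without KO cell 1 or KO cell 4. The floor sets its size here too, from -1.16 with a floor of 200 to -3.32 with a floor of 10.

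The 2 receptor genes were over the floor together in 5 cells, WT cells 2 to 4 and KO cells 2 and 3. In WT cell 1 *Tek* was over the floor and *Tie1* was not, whereas in KO cells 1 and 4 it was the reverse. No cell lacked both. The probes share 68.4% of their aligned bases, and each was at the floor in cells where the other was at 8.79 or above. Of the ligands, *Angpt2* (chr8:18691458-18691517, minus strand) was below the floor in all 8 cells, with scaled intensities between 1.2 and 4.2, and *Angpt1* and *Angpt4* were detected in none of the cells either, so that no fold can be given for them.

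**Figure D2:**
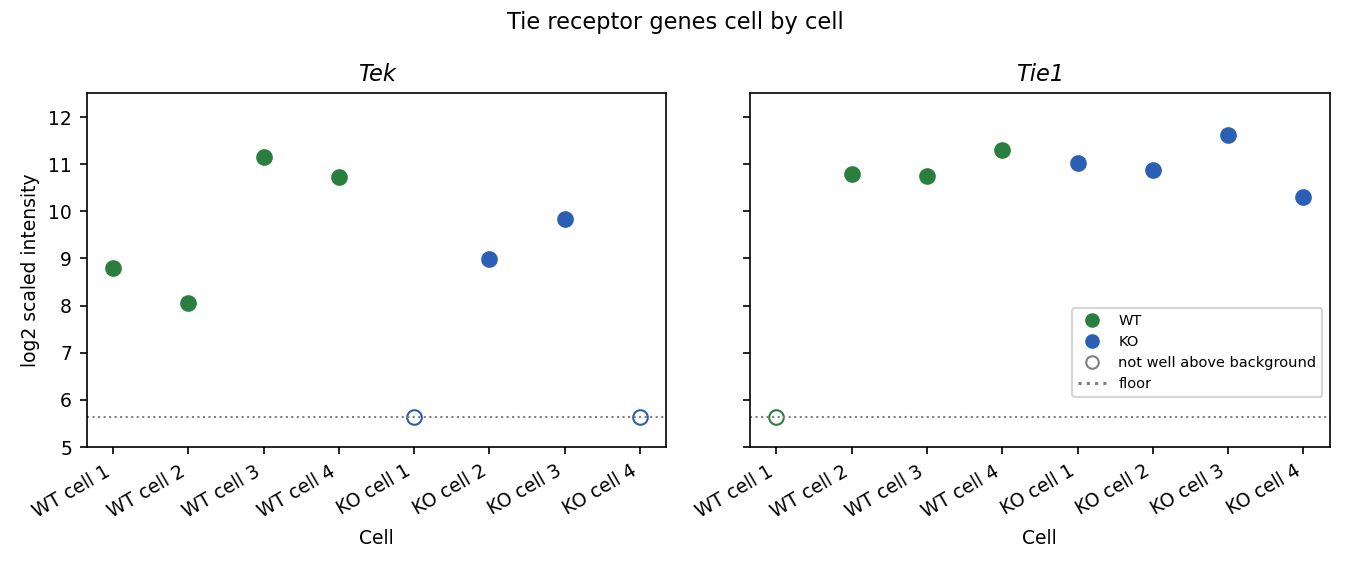
Log2 scaled intensity of *Tek* (left) and *Tie1* (right) in each WT (green) and KO (blue) cell; open symbols are probes not well above background and the dotted line is the floor at 5.64. *Tek* is at the floor in KO cells 1 and 4, and *Tie1* only in WT cell 1; heights are not comparable between the 2 panels, since each gene has its own probe.

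Set side by side, 4 of the 10 genes had a higher mean in KO cells (*Emcn*, *Cd34*, *Esam* and *Tie1*), 5 had a lower mean, and *Angpt2* was at the floor throughout. Of all 35560 genes, 8103 had a higher and 6492 a lower mean. The median difference was -0.24 over the 10 genes, -0.48 over the 9 detected ones and 0.00 over all detected genes. Of the 35560 genes, 20965 were at the floor in all 8 cells but only 15295 were detected in none. The detected genes, over which this median and the shares below are taken, thus include genes whose difference is 0.00 because of the floor. At least 5-fold higher were 2 of the 9 detected members, *Emcn* and *Cd34*, beside 3.22% of all detected genes, and 0 of 9 were at least 5-fold lower, beside 3.24%. The share of detected genes with every KO cell above every WT cell was 1.13%, and *Cd34* was 1 such gene of 9, while 0.247% had every KO cell below every WT cell and none of the members did. Over the 11862 genes detected in at least 4 cells, among them 8 members, the shares were 4.64% higher, 4.33% lower, 1.94% not overlapping with KO above and 0.422% with KO below. Without WT cell 1, only *Emcn* was at least 5-fold higher (2.74% of detected genes), and *Icam2*, *Cldn5* and *Tek* were at least 5-fold lower (5.14%). *Cd34* was then still the only member not overlapping with KO above (2.68%) and no member lay wholly below (1.19%). The same shares over genes detected in at least 4 cells, which leave out *Cldn5* and *Angpt2*, were 3.79%, 6.85%, 4.58% and 1.69%.

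**Figure D3:**
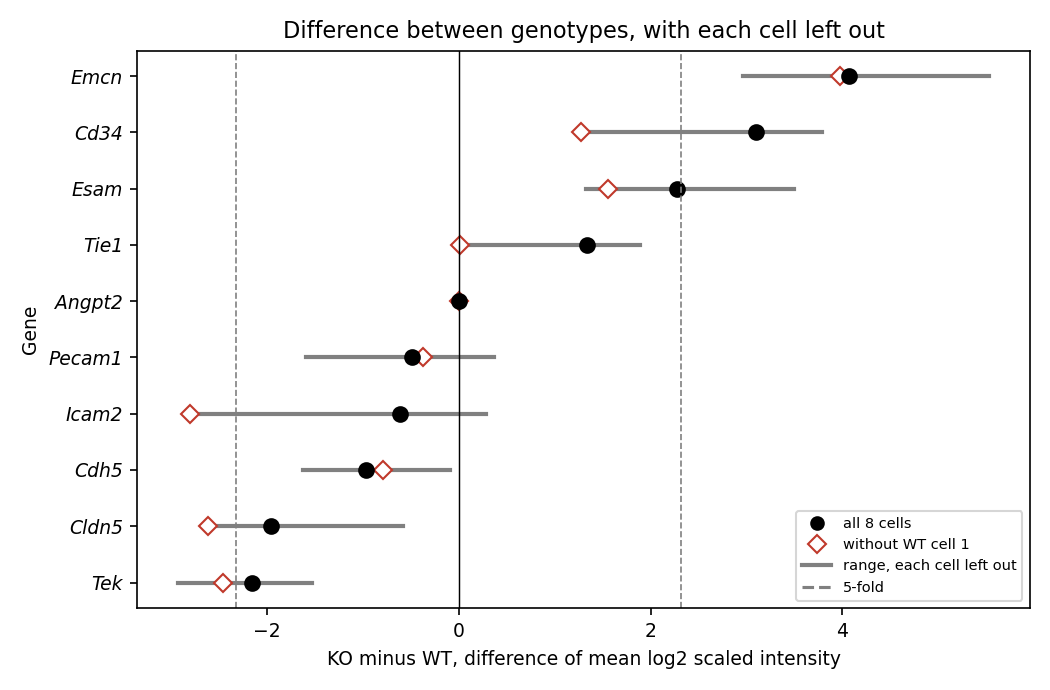
Difference of mean log2 scaled intensity (KO minus WT) for the 10 genes with all 8 cells (black), without WT cell 1 (red diamonds) and as the range when each cell is left out in turn (grey bars); dashed lines mark 5-fold. Leaving out WT cell 1 takes *Cd34* from 3.10 to 1.27, *Tie1* from 1.34 to 0.01 and *Icam2* from -0.61 to -2.80.

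The median SD between cells within genotypes was 2.43 over the 9 detected members and 0.72 over all detected genes, a set that includes genes at the floor in all 8 cells. It was of similar size in other lists of cell type genes, 2.42 over the junction partners, 2.04 over the other surface genes, 2.23 over the other endothelial and endocardial markers and 2.79 over the cardiomyocyte markers described below. Over the 8 members detected in at least 4 cells the median was 2.45, beside 0.93 over the 11862 genes detected in at least 4 cells, a set that includes genes at the floor in most cells. The range over the 8 cells was largest for *Icam2* (9.25) and *Cd34* (9.13) and smallest among detected members for *Cdh5* (4.59). WT cell 1 was at or near the floor for *Tie1*, *Cd34*, *Icam2*, *Esam*, *Cldn5* and *Emcn*, but was among the high cells for *Cdh5* and stood at 9.00 for *Pecam1*. KO cell 1 was the lowest KO cell for *Cdh5* and *Pecam1* and was at the floor for *Tek*, but was at 13.95 for *Cd34*. The part of detection depth in these values was not tested.

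Of 8 other genes listed by name beside the Tie receptors, whose links to these receptors were not tested, 4 were detected in at least 1 cell. At least 5-fold higher in KO cells was 1 and none was lower, beside 3.22% and 3.24% of all detected genes. The gene was *Ecscr*, which encodes an endothelial cell surface protein. Its values were 9.84, 11.76, 10.14 and 11.09 in WT cells and 13.44, 13.32, 12.30 and 14.01 in KO cells, so that the genotypes did not overlap. Its difference of 2.56 exceeded the SD between cells of 0.80, and the cells did not overlap with any cell left out. The difference was under 5-fold without WT cell 1 (2.27) or KO cell 4 (2.31) and at most 2.91, without WT cell 2. Every KO cell was above every WT cell for 1.13% of all detected genes and for 1.94% of those detected in at least 4 cells. Whether the cells overlap for *Ecscr* under other ways of processing was not examined. *Ptprb*, the endothelial receptor phosphatase that acts on TIE2 and VE-cadherin, was over the floor in WT cells 3 and 4 and KO cells 3 and 4, with a difference of 1.24 that was smaller than the SD between cells of 3.06. Leaving out WT cell 1 gave 0.66, KO cell 3 gave 0.14, KO cell 4 gave 0.35 and WT cell 4 gave 2.51.

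Of 20 partners of adherens and tight junctions, 15 were detected, 1 was at least 5-fold higher in KO cells and none lower. Without WT cell 1 the counts were 0 and 1, the latter *F11r* (-2.50, and -0.98 with all cells, SD between cells 3.70). The *F11r* difference was -3.05 without KO cell 2, which stood at 15.45, and -0.06 without KO cell 1. Both catenin genes that follow were detected in all 8 cells. *Ctnnb1* (beta-catenin) was between 11.55 and 12.18 in WT and between 11.72 and 12.61 in KO cells. *Ctnna1* (alpha-catenin) was 5.64, 11.66, 15.81 and 14.32 in WT cells and 15.21, 15.54, 15.29 and 14.77 in KO cells. Its difference of 3.34 (SD between cells 3.18) was 1.27 without WT cell 1, 4.66 without WT cell 3 and 4.16 without WT cell 4. WT cell 1 was thus the low cell for *Ctnna1* as for *Cd34* and *Tie1*. Of 19 other endothelial surface genes, 12 were detected, 1 was at least 5-fold higher and 1 lower. Without WT cell 1 the counts were 1 and 2, with *Thbd* as the second lower gene (-2.45, and -1.67 with all cells, SD between cells 2.16). The *Thbd* difference was -0.72 without WT cell 4. Over all detected genes the shares were 3.22% and 3.24%, and 2.74% and 5.14% without WT cell 1. *Plvap*, a protein of endothelial diaphragms, was 15.38, 13.45, 7.60 and 12.71 in WT cells and 16.27, 15.82, 15.74 and 12.77 in KO cells. Its difference of 2.86 (SD between cells 2.61) was 1.30 without WT cell 3, 3.90 without WT cell 1 and 3.66 without KO cell 4. *Lyve1*, a hyaluronan receptor, was over the floor only in WT cells 3 and 4 (11.56 and 9.59), and was well above background in no KO cell. With WT cells 1 and 2 and every KO cell at the floor, the floor sets the size of its fold, which is not a lower bound. The mean was 5.52-fold lower in KO cells, a difference of -2.46 with an SD between cells of 2.09. The fold was 2.49 without WT cell 3, 3.92 without WT cell 4 and 9.75 without WT cell 1 or WT cell 2.

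Cells were also read for markers fixed by name. The other endothelial and endocardial markers were each detected in at least 1 cell, and 7, 7, 8 and 8 of 9 were detected in WT cells and 5, 7, 6 and 7 in KO cells, with *Kdr*, *Sox18* and *Fli1* in all 8 cells. Of these 9, 4 had a higher and 4 a lower mean in KO cells, with a median difference of 0.00. Over all 35560 genes, 8103 had a higher and 6492 a lower mean. Over all detected genes, 3.22% were at least 5-fold higher in KO cells and 3.24% at least 5-fold lower, shares that also stand beside the cardiomyocyte markers below. The 1 that was at least 5-fold apart among these 9, *Etv2*, a transcription factor of early endothelial cells, differed by -3.86 with an SD between cells of 3.74. WT cell 2 was at the floor and KO cell 4 stood at 12.46, so that the genotypes overlapped. The difference was -2.63 without WT cell 1, -5.92 without WT cell 2 and -5.37 without KO cell 4. The summed scaled intensity of 9 cardiomyocyte markers ran from 318 to 38422 in WT cells and from 1036 to 48756 in KO cells, and 3 to 8 of them were detected per WT cell and 4 to 8 per KO cell. Of these 9, 5 had a higher and 3 a lower mean in KO cells. The 1 at least 5-fold apart, *Actc1*, a cardiac actin gene, differed by 2.67 with an SD between cells of 2.79. The difference was less than 5-fold without WT cell 1 (1.46), WT cell 3 (2.27) or KO cell 1 (1.79). *Actc1* and *Myh7* were detected in all 8 cells and *Myl4* in 7. *Actc1* ran from 6.38 in WT cell 1 to 15.32 in KO cell 1, and *Myh7* stood at 13.24 in WT cell 2 and at most at 7.25 elsewhere. *Myh6* was at the floor in all 8 cells, and *Tnnt2* was over it in WT cell 3 and KO cell 4. The summed scaled intensity of 3 smooth muscle markers ran from 66 to 14376 in WT and from 57 to 7724 in KO cells. None of 5 blood and 5 endoderm markers was over the floor in any cell, though 2 of the blood and 1 of the endoderm markers were detected in at least 1 cell. The ranges of the genotypes overlapped for each of these lists, and the part of other cells' transcripts in the differences was not tested.

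**Figure D4:**
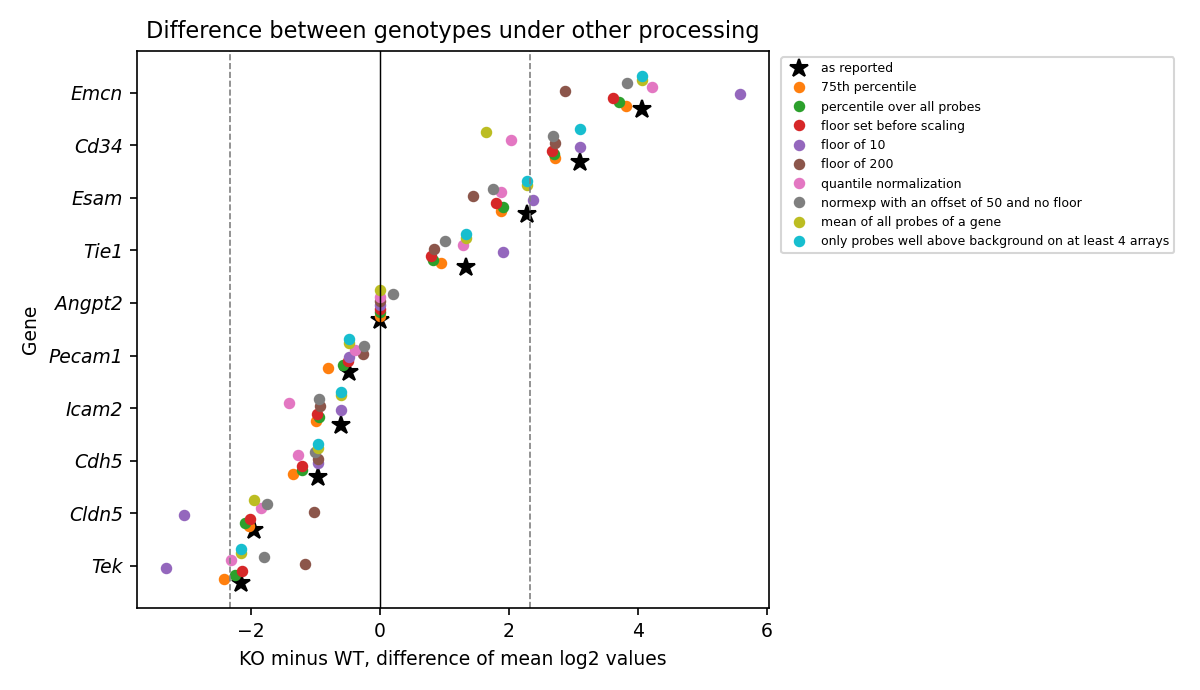
KO minus WT difference of the mean log2 value for the 10 genes as reported (stars) and under 9 other ways of scaling, flooring or choosing probes (coloured points); dashed lines mark 5-fold. *Emcn* stays past 5-fold under all of them, between 2.87 and 5.58, and *Cd34* runs from 1.65 to 3.10.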

How the data were processed

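The authors deposited the scanner output of 8 1-colour arrays, from Agilent Feature Extraction 12.0.2.2 and design 028005 (mm9, NCBI 37). The deposited intensity values came with that software's own background subtraction and spatial detrending and with no normalization between arrays, and the other deposited columns used are 0 or 1 flags. The study's methods set values under 50 to 50, scaled arrays to the 50th percentile and then centred each gene on its median. Here scaling came before the floor, the percentile was taken over commonly detected probes, and genes were not centred. Centring a gene moves all its cells alike and no difference.

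Control and outlier spots were left out, spots of a probe averaged, and only probes still measured on every array kept (55295 of 55681). No non-control spot was saturated and no spot of the 10 genes was an outlier. A probe was detected when over 50% of its spots were well above background. Arrays were divided by their 50th percentile over the 7570 probes detected on all of them, brought to a common level, floored at 50 and put on the log2 scale. Names came from RefSeq (GRCm38.p6, names only) by accession for 28131 probes and from the files otherwise, and a gene is given by its brightest probe. All 10 genes are named. Of the other lists, genes at least 5-fold apart or not overlapping are named, while *Ptprb*, *Ctnnb1*, *F11r*, *Thbd*, the angiopoietin genes and single markers were named after their values were seen. The members and lists were chosen with earlier results of these data known. Alternatives were other percentiles, floors of 10 and 200, the floor set first, quantile normalization, normexp (limma 3.58.1 in R 4.3.3, offset 50), the mean of probes, a filter of 4 arrays, other detection calls and leaving out each cell. The scaling, floor and difference steps were run on simulated arrays in which only bright probes were shifted. Their spread between arrays was smaller than that of the members between cells, so that run does not cover genes near the floor or with such spread. Python 3.11.15, numpy 2.4.6, pandas 2.3.3 and matplotlib 3.10.9 were used. With 4 arrays per genotype, precision is limited by their number.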

Additional observations from a re-analysis of the deposited data

Results flagged for a closer look

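A cell standing apart from the other 3 of its genotype was looked for with Dixon's ratio, its gap to the nearest cell over the full spread, in 32 sets of values. Its critical value was passed in 7 sets, where chance alone would give about 1 set in 20, here 1.6. That reference holds for independent sets without ties, and these sets share cells and hold ties, so that the 2 numbers cannot be compared closely. WT cell 1 lay below the other WT cells for *Cd34* (ratio 0.948), *Tie1* (0.904), *Icam2* (0.849) and the number of the 10 genes detected (1.0). For that number the other WT cells were tied, which fixes the ratio, and it is drawn from the same genes. WT cell 4 lay above the other WT cells for *Emcn* (1.0) and KO cell 3 above the other KO cells for the second probe of *Cd34* (1.0), in both cases with the other 3 cells tied at the floor, which fixes the ratio at 1.0. KO cell 4 lay below the other KO cells for *Plvap* (0.849). *Cdh5*, *Pecam1*, *Esam*, *Cldn5*, *Tek* and *Angpt2* had no cell that far from the rest in either genotype.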

How the results depend on the processing

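No paired analysis was possible because no comparison of the genotypes comes from a test, and the replicate numbers of the labels do not name a shared embryo. The 9 alternatives of processing kept the sign of each difference of the 9 detected genes, where they gave one, and the filter of 4 arrays gave none for *Cldn5*. *Angpt2*, at the floor in every cell, went from 0.00 to 0.20 under normexp, which has no floor. The count of members at least 5-fold higher in KO cells went from 2 to 1 under quantile normalization and with the mean of all probes, each time through *Cd34* (2.03 and 1.65), to 3 with a floor of 10 (*Esam*, 2.38), and was 1 to 3 with a cell left out. The count at least 5-fold lower went from 0 to 1 with the 75th percentile (*Tek*, -2.42) and to 2 with a floor of 10 (*Tek*, -3.32, and *Cldn5*, -3.04), and was 0 to 3 with a cell left out, with 3 without WT cell 1. The count not overlapping, KO above WT, went from 1 to 0 with the 75th percentile, with the percentile over all probes, with the floor set before scaling, under quantile normalization and under normexp, and was 1 to 2 with a cell left out. The median difference of -0.24 ran from -0.56 to 0.30 with a cell left out and was 0.43 with the filter of 4 arrays, so that it has no settled sign. The median number detected per KO cell went from 7.5 to 9 with the scanner software's looser call (positive and significant), and that per WT cell from 8 to 8.5. The number of arrays and signals near background limit these values, and the causes of these changes were not tested, other than that a lower floor lets values under it spread further.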
